A study of Homo sapiens with 4 samples.

Results

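Box H/ACA small nucleolar RNAs (SNORA symbols) and small Cajal body RNAs (SCARNA symbols) were described in 4 RNA sequencing libraries of the human cell line PK-1, which was derived from a pancreatic ductal adenocarcinoma of the well-differentiated kind. Members were selected on their measured level: they are the symbols that begin with SNORA or SCARNA and a number and whose deposited log2 TPM was above 0 in at least 1 of the 4 libraries, with host genes and antisense names left out. Of the 161 such symbols in the tables, 89 qualified (79 of 133 SNORA and 10 of 28 SCARNA), and the other 72 were listed at 0 in all 4 libraries. TPM divides the signal of a gene by its length and scales each library to the same total, and a listed log2 TPM of 0 means that the TPM did not exceed 1, called the floor here. All libraries were PK-1 cells made to express SPRR1A, a precursor protein of the cornified envelope of squamous epithelia, or a fluorescent protein. In the stable model the retroviral vector pMXs delivered SPRR1A with a FLAG tag, or DsRed as the control. In the transient model the plasmid pCAG delivered SPRR1A with a FLAG tag, or GFP as the control. Each of these 4 conditions had 1 library, so no difference within a model has a replicate check and none was tested. A joint fit of SPRR1A and delivery over the 4 libraries, with 1 residual degree of freedom, was not run. Where 4 values follow each other below, the stable SPRR1A and DsRed libraries come first and the transient SPRR1A and GFP libraries second, and of 2 differences the stable model comes first. The labels do not say whether the stable cells were a pool or a clone.

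H/ACA RNAs fold into hairpins joined by a hinge, which carries the H box, and end in a short tail with an ACA triplet. In nucleoli they guide the pseudouridine synthase dyskerin (DKC1) to chosen uridines of ribosomal RNA by base pairing, and a few act in the cleavage of its precursor. Small Cajal body RNAs stay in Cajal bodies, where they guide the modification of spliceosomal small nuclear RNAs, and some of them are of the box C/D type or carry both kinds of box. In human cells nearly all are cut out of introns of host genes after splicing and trimmed to size, with no lasting poly(A) tail. The libraries here were made with a kit for poly(A) RNA, so the signal of a member could come from the mature RNA, from a precursor, or from a host transcript that retains it. Which of these gave the reads was not tested.

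The sequences of members on which the results turn are printed 5′ to 3′ from RefSeq positions in GRCh38, with the hinge motif ANANNA (the H box, searched in the middle 30% of the RNA) and an ACA that lies 3 bases before the end in capitals. The first pair had the highest mean levels, and SNORA25 shares the host TAF1D with SNORA40 but was lower after transient delivery.
SNORA70, chrX:154400281-154400415, plus strand, within RPL10: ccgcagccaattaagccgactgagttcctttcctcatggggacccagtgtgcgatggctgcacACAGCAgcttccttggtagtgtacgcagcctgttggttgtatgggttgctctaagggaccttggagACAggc
SNORA40, chr11:93735110-93735236, minus strand, within TAF1D: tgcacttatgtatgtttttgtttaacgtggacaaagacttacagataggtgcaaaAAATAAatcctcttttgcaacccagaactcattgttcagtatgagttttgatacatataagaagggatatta
SNORA25, chr11:93730513-93730646, minus strand, within TAF1D: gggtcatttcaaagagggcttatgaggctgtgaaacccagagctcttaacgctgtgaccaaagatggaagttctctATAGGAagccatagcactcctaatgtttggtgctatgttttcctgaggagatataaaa

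The next set are 9 of the 15 members that differed by more than 2-fold between an SPRR1A library and its control. They include SNORA71A with SNORA71B and SNORA2A with SNORA2C, each pair from a shared host.
SNORA52, chr11:811681-811814, plus strand, within RPLP2: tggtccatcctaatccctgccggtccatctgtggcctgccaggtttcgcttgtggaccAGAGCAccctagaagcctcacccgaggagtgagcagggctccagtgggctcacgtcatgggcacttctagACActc
SNORA7A, chr3:12840312-12840450, minus strand, within RPL32: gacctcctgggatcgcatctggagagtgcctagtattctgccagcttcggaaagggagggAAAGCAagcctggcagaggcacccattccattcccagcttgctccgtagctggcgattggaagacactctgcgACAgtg
SNORA23, chr11:9428766-9428954, plus strand, within IPO7: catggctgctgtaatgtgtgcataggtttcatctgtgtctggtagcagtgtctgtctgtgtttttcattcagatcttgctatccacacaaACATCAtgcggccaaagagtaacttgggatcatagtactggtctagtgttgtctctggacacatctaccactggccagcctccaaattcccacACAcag
SNORA50A, chr16:58559796-58559931, minus strand, within CNOT1: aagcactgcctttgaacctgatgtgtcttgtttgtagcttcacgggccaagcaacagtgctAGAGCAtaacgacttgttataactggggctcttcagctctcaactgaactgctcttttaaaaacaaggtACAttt
SNORA71B, chr20:38425195-38425330, minus strand, within SNHG17: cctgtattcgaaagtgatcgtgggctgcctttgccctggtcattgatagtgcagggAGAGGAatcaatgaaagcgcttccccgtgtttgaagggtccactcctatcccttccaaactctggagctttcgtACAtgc
SNORA71A, chr20:38427306-38427443, minus strand, within SNHG17: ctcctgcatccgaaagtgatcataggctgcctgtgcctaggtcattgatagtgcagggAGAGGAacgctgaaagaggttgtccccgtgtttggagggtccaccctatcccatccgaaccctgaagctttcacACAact
SNORA2A, chr12:48656648-48656782, minus strand, within KANSL2: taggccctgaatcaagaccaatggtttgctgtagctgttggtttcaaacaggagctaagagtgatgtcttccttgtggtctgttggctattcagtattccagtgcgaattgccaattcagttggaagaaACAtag
SNORA2C, chr12:48654382-48654518, minus strand, within KANSL2: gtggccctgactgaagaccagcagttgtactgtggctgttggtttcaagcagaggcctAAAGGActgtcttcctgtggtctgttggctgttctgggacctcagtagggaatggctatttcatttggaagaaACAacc
SCARNA21, chr17:7906123-7906260, plus strand, within CHD3: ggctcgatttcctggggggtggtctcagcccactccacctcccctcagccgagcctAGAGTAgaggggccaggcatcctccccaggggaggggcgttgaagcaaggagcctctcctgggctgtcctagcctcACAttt

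Of the 76 SNORA members with a strand in the tables used, 66 (86.8%) carried ACA 3 bases before the end and 71 (93.4%) held ANANNA in the middle 30%. Among 33 SNORA symbols at the floor with a strand the counts were 24 (72.7%) and 32. In 35116 promoter windows of 134 bases, cut from RefSeq promoter sequences and read in the same way on the strand of the gene, 1.36% had ACA at that place and 38.6% had the loosely defined ANANNA. SNORA40 and SNORA25 have no ACA at that place in the RefSeq entry, and SNORA2A has no ANANNA in the middle 30%. A missing match says only that these letters are not in that window. SNORA7A is 98.6% identical to SNORA7B, which was at the floor in all 4 libraries, and 7 of the SNORA members have a relative at 90% identity or more. How the authors' alignment shared reads between such copies is not given in the sources used here, so the split between them is uncertain.

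The targeted gene SPRR1A served to check the labels. Its log2 TPM was 10.93 with SPRR1A and 0.75 with DsRed in the stable pair, and 16.60 with SPRR1A and 3.56 with GFP in the transient pair. Both libraries labelled SPRR1A were above their controls, by 10.19 and 13.03 on the log2 scale. Of 7 markers of pancreatic ductal epithelium, 6 were above the floor in all 4 libraries, with keratins KRT7, KRT8, KRT18 and KRT19 at log2 TPM 11.47 to 12.94, whereas MUC1 did not exceed 0.90. PTPRC (leukocytes), PECAM1 (endothelium) and INS (islets) were listed at 0 in all 4, while COL1A1 (fibroblasts) reached 2.62 and PRSS1 (acinar cells) 1.86. Depth in reads is unknown. For low small RNAs, TPM multiplied by length moved in steps of 1 size per library, and 75.8% to 90.4% of the 66 to 88 values lay within 0.1 of a step from a whole number of steps. If 1 step is 1 aligned base, a TPM of 1 stood for a mean coverage of 1.82 aligned bases per base with SPRR1A and 2.39 with DsRed in the stable pair, and 2.74 with SPRR1A and 1.70 with GFP in the transient pair. For a member of the median length, 134 bases, the floor then lies at 227 to 368 aligned bases, which is little sequence. On this scale the stable SPRR1A and transient GFP libraries were the shallower of each pair. In bulk libraries fewer cells with an RNA and less of it per cell cannot be told apart.

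Most members were low, and the leading few carried a large share of the signal. The number above the floor was 68 with SPRR1A and 64 with DsRed in the stable pair, and 73 with SPRR1A and 73 with GFP in the transient pair, with median log2 TPM between 2.08 and 2.44 among those above it. The members together took 0.0683%, 0.0679%, 0.0659% and 0.0743% of the TPM total in that order. The 8 highest members of each library, taken per library, held between 44% and 50.3% of the members' sum. Between 21 and 23 members per library reached a TPM of 8, and 4 to 6 reached 32. The plot of levels by rank shows the steep decline and the widening of the 4 values below the leading ranks.

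**Figure D1:**
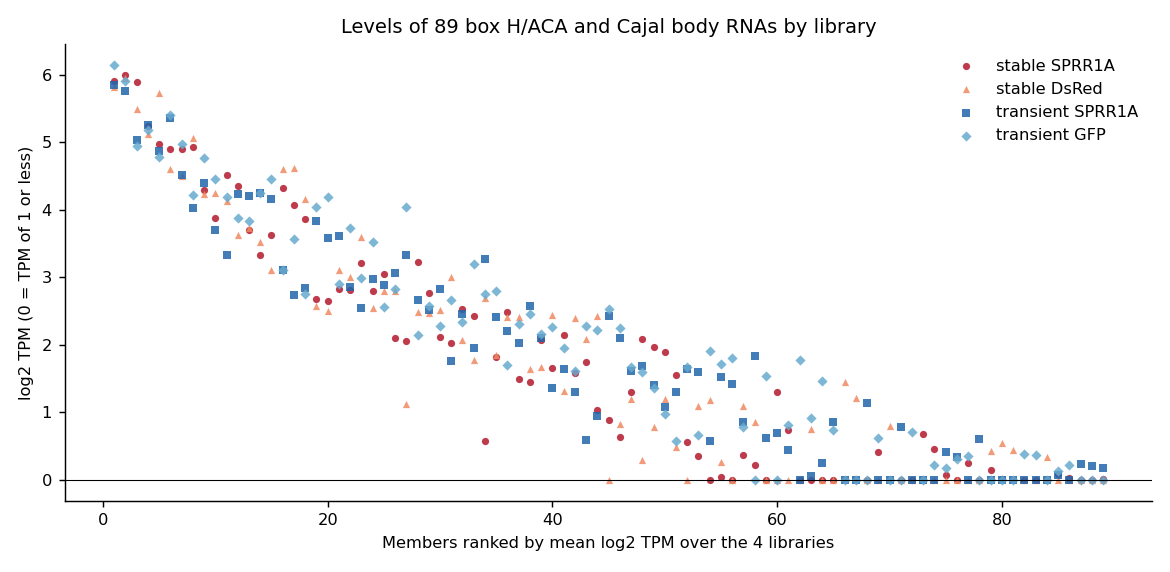
Log2 TPM (vertical axis, 0 means that the TPM did not exceed 1) of the 89 members in each of the 4 libraries, ranked by mean level (horizontal axis), with 1 point per library and no replicates. The leading members lie near 6 in all 4 libraries, and the points at 0 become frequent beyond the middle ranks.

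The highest member was SNORA40, within the gene of TAF1D, a subunit of the RNA polymerase I initiation factor. Its log2 TPM was 5.91 with SPRR1A and 5.81 with DsRed in the stable pair, and 5.85 with SPRR1A and 6.15 with GFP in the transient pair. SNORA70, within the ribosomal protein gene RPL10, read 5.99, 5.95, 5.76 and 5.91 in the same order. The means of these members differed by less than each varied over the libraries, so their order is not fixed. SNORA18, also in TAF1D, followed with 5.90, 5.49, 5.04 and 4.95. SNORA67, in the translation initiation factor gene EIF4A1, was the steadiest of the leading members at 5.25, 5.12, 5.26 and 5.18. The ribosomal protein gene RPS2 holds SNORA10, at 4.98, 5.73, 4.87 and 4.78, and SNORA64, at 4.90, 4.60, 5.37 and 5.40. SNORA10 was highest in stable DsRed and SNORA64 lowest there, within 1 host. SNORA32 of TAF1D read 4.94, 5.06, 4.03 and 4.22, lower in both transient libraries. Of the 16 members that reached a TPM of 8 in every library, none passed 2-fold in either model. The largest of their differences were for SNORA10 in the stable model (-0.75) and for SNORA57 in the transient model (-0.87).

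Among the 10 SCARNA members, 1 stood far above the others. SCARNA12, within the prohibitin gene PHB2 and known to carry both C/D and H/ACA parts, had a log2 TPM of 4.90 with SPRR1A and 4.51 with DsRed in the stable pair, and 4.51 with SPRR1A and 4.98 with GFP in the transient pair. SCARNA22, an H/ACA RNA within the histone methyltransferase gene NSD2, read 2.08, 1.67, 2.10 and 2.16. These were the only SCARNA members above the floor in all 4 libraries. SCARNA16, within the noncoding host SNHG20, was at the floor in both stable libraries and at 1.43 in transient SPRR1A and 1.81 in transient GFP. SCARNA21, within the chromatin remodeller gene CHD3, was likewise at the floor in both stable libraries, with 0.25 and 1.47 in the transient ones. The box C/D type SCARNA9, within CEP295, read 0.75 with SPRR1A and 0 with DsRed in the stable pair, and 0.44 with SPRR1A and 0.82 with GFP in the transient pair. The remaining 5 never exceeded 0.68. They were SCARNA8 (0.68 in stable SPRR1A only), SCARNA27 (0.44 in stable DsRed only), SCARNA17 (at most 0.41), SCARNA10 (at most 0.19) and SCARNA13 (at most 0.13).

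The floor decided much of what could be compared. Of the members, 53 were above it in all 4 libraries, 9 in 3, 12 in 2 and 15 in 1 library. A member that qualified through 1 library had to differ between libraries, so that these 15 are a description of the choice of members. They were above the floor in stable SPRR1A alone for 1 member, in stable DsRed for 5, in transient SPRR1A for 5 and in transient GFP for 4. In the stable model 8 members were at the floor in SPRR1A only (8.99%, against 1.61% of the 13944 entities chosen in the same way) and 12 in DsRed only (13.5%, against 2.48%). In the transient model 8 were at the floor in SPRR1A only (background 3.34%) and 8 in GFP only (background 1.14%). The counts were thus equal in the transient model, whereas in the stable model more members were at the floor in the control. That order did not hold with a minimum TPM of 2 in the higher library (3 at the floor in SPRR1A only and 1 in DsRed only) or among SNORA alone (7 and 7). No member was at the floor in both SPRR1A libraries and above it in both controls. The reverse held for SNORA22, with 1.31 in stable SPRR1A and 0.70 in transient SPRR1A, and for SCARNA10, with 0.01 and 0.19. The share of all entities with either pattern was not counted, so nothing about the members as a set follows from it. The members just inside the rule were SCARNA13, SCARNA10, SNORA11E and SNORA74B, with highest log2 TPM of 0.13, 0.19, 0.21 and 0.22, and those just outside were listed at 0 in every library. Because the floor hides how low a value was, a difference from the floor is a lower limit in size.

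In the stable model 4 members were higher and 5 lower in SPRR1A than in DsRed by more than 2-fold, that is by more than 1 on the log2 scale. These 9 are 10.1% of the members, against 0.904% of the 13944 entities (0.502% higher and 0.402% lower). Box C/D RNAs (SNORD symbols) gave 24 of 136, or 17.6%. Members above the floor in both libraries did not lean one way. Of 56, 27 were higher and 29 lower, with a median difference of -0.03 against 0.07 for all 12739 entities above the floor in both. A minimum TPM of 2 in the higher library turned that median to 0.06. The members' differences ran from -2.12 to 1.79 with an SD of 0.67, against an SD of 0.26 over all entities.

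SNORA52 had the largest difference of the stable model. It lies in the ribosomal protein gene RPLP2, and its log2 TPM was 0.58 with SPRR1A and 2.70 with DsRed in the stable pair, and 3.27 with SPRR1A and 2.76 with GFP in the transient pair. The stable SPRR1A library stood alone below the other 3, and the difference was -2.12 and 0.51 in the stable and transient models. As estimated coverage these levels were 2.73, 15.5, 26.5 and 11.5 aligned bases per base. The host RPLP2 differed by -0.07 and -0.10, so the host's level did not move with SNORA52.

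SNORA7A, in the ribosomal protein gene RPL32, had the largest increase of the stable model. It read 2.08 with SPRR1A and 0.30 with DsRed in the stable pair, and 1.68 with SPRR1A and 1.61 with GFP in the transient pair. Here the DsRed library stood apart below the other 3, with an estimated coverage of 2.93 against 7.73, 8.82 and 5.16. The differences were 1.79 and 0.08, and RPL32 differed by -0.04 and -0.08. Its near-identical copy SNORA7B was listed at 0 throughout.

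The other increases of the stable model were smaller. In each of them stable SPRR1A was the highest of the 4 libraries and DsRed was the lowest or at the floor. For SNORA22 and SNORA55 both SPRR1A libraries lay above both controls. SNORA22, within the transcribed pseudogene CCT6P1, was at 1.31 in stable SPRR1A and 0.70 in transient SPRR1A and at the floor in both controls, which gives 1.31 and 0.70. SNORA2C, within KANSL2 (a subunit of a histone acetyltransferase complex), read 1.97, 0.78, 1.41 and 1.36, with differences of 1.18 and 0.05. SNORA55, within the poly(A) binding protein gene PABPC4, read 1.56, 0.49, 1.30 and 0.58, with 1.07 and 0.72. For both of these the DsRed library was the lowest of the 4, and for SNORA55 the GFP library came next. SNORA55 was the member just inside the threshold and SNORA48 (0.94) the one just outside it.

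Among the decreases of the stable model, 2 members were above the floor only in DsRed. SNORA46, within CNOT1 (the scaffold of the CCR4-NOT deadenylase complex), was at 1.46 there. SNORA49, within the chromatin remodeller gene EP400, was at 1.22. Since the other 3 libraries were at the floor, these differences of -1.46 and -1.22 belong to 1 library. SNORA26 (-0.98), within the noncoding host DANCR, lay just outside the threshold.

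In the transient model 2 members were higher and 6 lower in SPRR1A than in GFP by more than 2-fold. These 8 are 8.99% of the members, against 0.875% of the 13944 entities (0.186% higher and 0.688% lower) and 19 of 136 SNORD symbols. The excess of lower over higher calls was also present over all entities, whose median difference was -0.19 among the 13092 above the floor in both libraries. Of 65 members above the floor in both libraries, 26 were higher and 39 lower, with a median of -0.11, a range of -1.68 to 0.93 and an SD of 0.54 (0.23 over all entities). Centred on the median of entities that reach a TPM of 5 in each library, which was -0.18, 35 were higher and 30 lower and the median turned to 0.08, and without SPRR1A in the TPM total it was 0.05. With that centring 3 members were higher and 6 lower past 2-fold (background 0.373% and 0.402%).

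SNORA23 had the largest increase of the transient model. It lies within IPO7, a nuclear import receptor gene, and its log2 TPM was 0.23 with SPRR1A and 0.86 with DsRed in the stable pair, and 1.84 with SPRR1A and 0 with GFP in the transient pair. The transient SPRR1A library was the highest of the 4, with an estimated coverage of 9.80, and the differences were -0.64 and 1.84 in the stable and transient models. IPO7 differed by 0.26 and -0.33, in both models opposite in sign to SNORA23. The only other increase was SNORA11, within MAGED2, at 1.15 in transient SPRR1A and at the floor in the other 3 libraries.

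SNORA50A had the largest decrease. It was at 1.77 in transient GFP, with an estimated coverage of 5.79, and at the floor in the other 3 libraries. It shares its host CNOT1 with SNORA46, which was above the floor only in stable DsRed, and CNOT1 itself differed by 0.17 and -0.27 in the stable and transient models. The 2 members of this host were therefore each seen in 1 control library, and not in the same one. SCARNA21, at 0.25 and 1.47 in the transient libraries, gave -1.22, and -1.04 after centring.

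The noncoding host SNHG17 carried 2 of the 6 decreases. SNORA71B read 1.75 with SPRR1A and 2.09 with DsRed in the stable pair, and 0.60 with SPRR1A and 2.28 with GFP in the transient pair, with differences of -0.33 and -1.68. SNORA71A read 2.43, 1.77, 1.96 and 3.20, with 0.66 and -1.24. SNORA71C, from the same host, went the other way in the transient model at 2.11, 2.51, 2.84 and 2.28, and the host itself differed by -0.17 and 0.03. SNORA71D was above the floor only in transient GFP, at 0.37. Of the 4 SNORA71 members of this host, 3 were thus lower and SNORA71C higher with SPRR1A in the transient pair. SNORA71B is 87.7% identical to SNORA71D and SNORA71A is 82.6% identical to SNORA71C, so reads that match several copies could have been divided among them.

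Of the 15 members past 2-fold in at least 1 model, 2 passed in both, each in the same direction, and none passed in opposite directions. The paper lists both, SNORA2A and SNORA103, among its entities lowered in both models, beside other small RNAs such as SNORD4B and SNORD84. The share of all entities that passed in both models is not given here, so the count says nothing particular to the members. SNORA2A, within KANSL2, was at the floor with stable SPRR1A and at 1.19 with DsRed, and at 0.58 with transient SPRR1A and 1.91 with GFP. Both controls were above both SPRR1A libraries, by 1.19 and 1.33 in their own pairs. SNORA103, with 86 bases, lies within the span of GAS5, but it has no strand in the tables used and so no host was assigned. SNORA103 read 1.04, 2.43, 0.94 and 2.23, with differences of -1.39 and -1.29. Again both controls lay above both SPRR1A libraries, and the 2 SPRR1A libraries were close to each other. That order is not particular to these members. SNORA26, SNORA78 and SNORA4 were among others with it, SNORA55 had the reverse, and the share over all entities was not counted. After centring these differences were -1.25 and -1.14 for SNORA2A and -1.45 and -1.10 for SNORA103. On log2(TPM + 1) they were -0.71 and -0.93 for SNORA2A and -1.06 and -0.96 for SNORA103, so that neither passed 2-fold in both models. With 2 SPRR1A libraries against 2 controls from different delivery methods, an exact permutation test could not go below a p of 0.333, so none was run. KANSL2 also holds SNORA2C, past 2-fold only in the stable pair, and SNORA2B, at 0.78 in transient SPRR1A alone, while KANSL2 differed by 0.12 and -0.09. The 3 SNORA2 members are 75.2% identical to their nearest relative among them. The plot of both models' differences shows these members apart from the central cloud.

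**Figure D2:**
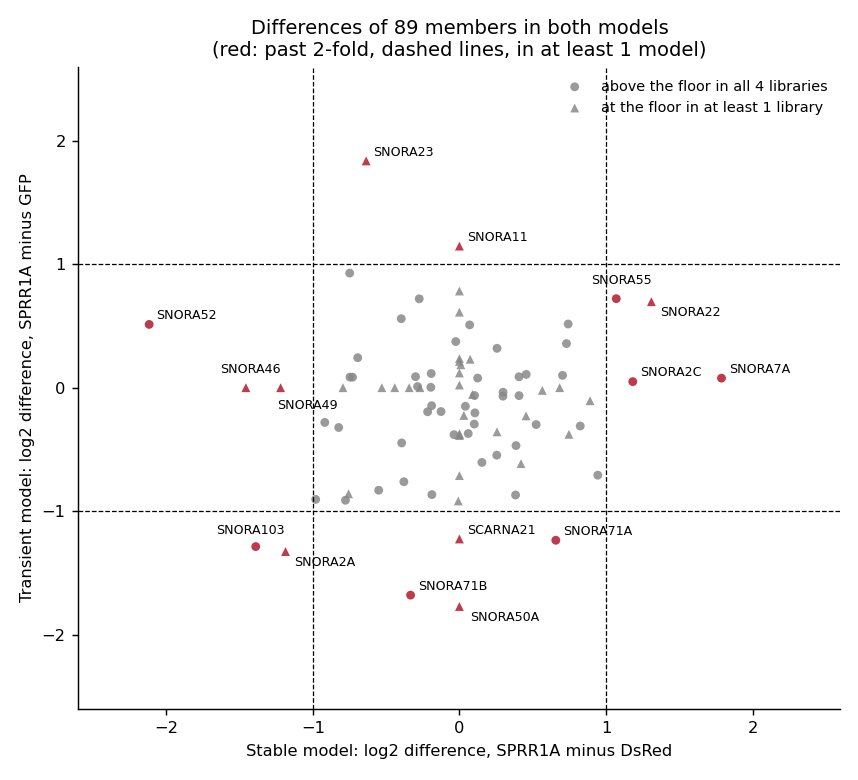
Log2 difference of each of the 89 members between SPRR1A and DsRed in the stable model (horizontal axis) and between SPRR1A and GFP in the transient model (vertical axis), with triangles for members at the floor in at least 1 library. The 15 members in red lie beyond the dashed 2-fold lines, and only SNORA2A and SNORA103 lie beyond both.

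Members past 2-fold were low ones. No such member exceeded a log2 TPM of 3.27 in any library, and their median mean level was 0.92, against 1.47 over all members. At the floor in 1 library of the pair were 4 of the 9 in the stable and 3 of the 8 in the transient model. When members were sorted by their highest log2 TPM, those between 1 and 2 held most calls, with 6 of 18 in the stable and 5 of 18 in the transient model. In the same band 2.68% and 3.16% of the 1267 entities other than small RNAs passed. That class holds every symbol that is not SNORA, SCARNA, SNORD or MIR with a number, whatever its length. Below 1 no difference can pass, since the floor is at 0. The SD of the members' differences was 0.82 and 0.91 in that band, against 0.39 and 0.36 for the other entities. Between 3 and 5 it was 0.66 and 0.55 over 24 members, against 0.22 and 0.16 for 4429 other entities and 0.74 and 0.58 for 56 SNORD symbols. Above 5 it was 0.38 and 0.15 over 7 members. The members thus scattered more than these other entities in each of these bands, as did box C/D RNAs. Their SD was smaller in the band above 5 than in the bands between 1 and 5. At the same TPM a short RNA carries fewer aligned bases than a long one, and the part of this in the scatter was not tested.

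**Figure D3:**
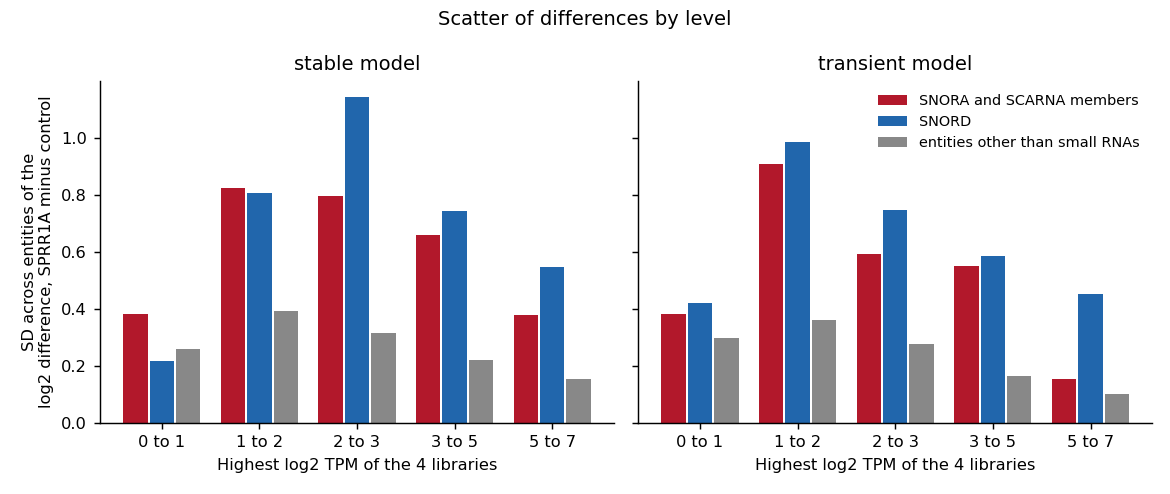
SD across entities of the log2 difference SPRR1A minus control (vertical axis) by band of the highest log2 TPM of the 4 libraries (horizontal axis), for the stable model (left) and the transient model (right), with bars for members, SNORD symbols and entities other than small RNAs. In the bands from 1 upward, the bars of the members stand above those of the other entities in both models.

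Host genes and exons were the next question, since a member lies inside another transcript. Of the 89 members, 83 lay within a gene on the same strand in GENCODE 44, in 61 host genes, of which 47 were protein-coding and 13 noncoding. Ribosomal protein genes made up 14 of these hosts, with 17 members, and SNHG genes 11, with 16 members. No host passed 2-fold in either model, and the largest host differences in size were 0.55 and 0.43 in the stable and transient models. Member and host level were weakly related across the 83 members (Spearman's rho 0.30, a description only, since members share hosts and libraries). In the rho and in the count of hosts past 2-fold, 2 hosts listed at 0 in all 4 libraries, EIF4A1 and MAGED4B, entered at that value. Only 4 members had a mean level above that of their host. They were SNORA50C, SNORA11E, whose host MAGED4B was listed at 0 in all 4 libraries, and SNORA67 and SNORA48. EIF4A1, the host of the latter pair, was also listed at 0 throughout, while the read-through entry SENP3-EIF4A1, which spans it, read 9.74, 9.76, 9.44 and 9.52.

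Level went with overlap of an annotated exon. Of the 85 members with a strand, 54 (63.5%) overlapped an exon of some GENCODE transcript on their strand. Of the SNORA and SCARNA symbols at the floor with a strand it was 9 of 47 (19.1%). The loss was uneven, as 25 symbols at the floor had no strand, against 4 members. Leaving out transcripts annotated as retained introns, the counts were 31 of 85 (36.5%) and 5 of 47 (10.6%). The 54 members over exons had a median mean log2 TPM of 2.36, and 40 of them (74.1%) were above the floor in all 4 libraries. For the 31 over no exon the median was 0.43, and 10 (32.3%) were above the floor in all 4. All 7 members that reached a TPM of 32 in any library were over exons. The contrast was smaller with retained introns left out, at medians of 2.22 for the 31 members and 1.17 for the other 54. Above the floor in all 4 libraries were then 71.0% and 51.9%, and 5 and 2 members reached a TPM of 32. Differences past 2-fold in at least 1 model fell on 4 of the 54 members over any exon (7.41%) and on 10 of the 31 over none (32.3%). Of the 4 members without a strand, 1 passed. How often entities at large pass in either model was not counted. Members over no exon were also the lower ones, and most calls lay at a highest log2 TPM between 1 and 2. Whether exon overlap goes with such differences at equal level was not tested. The share of a member's signal that came from a longer transcript over it was not tested.

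**Figure D4:**
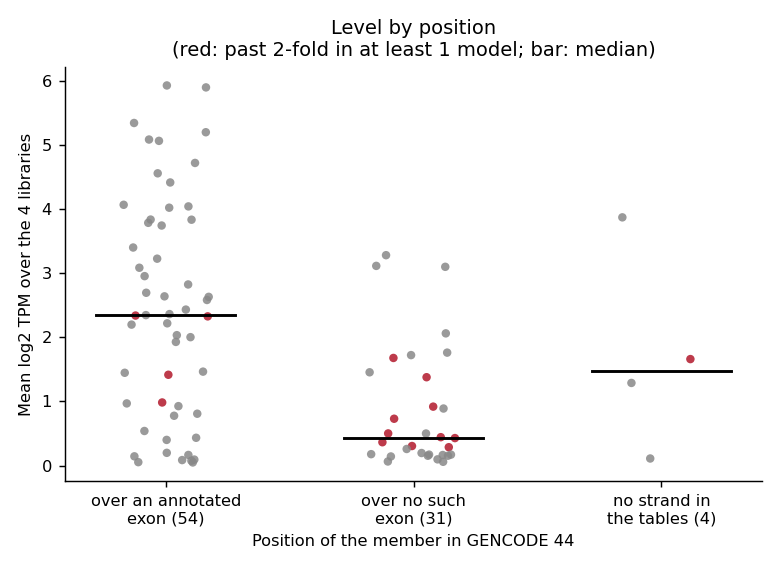
Mean log2 TPM over the 4 libraries (vertical axis) of members that overlap an annotated exon on their strand, members that overlap none and members with no strand in the tables (horizontal axis), with 1 point per member and the median as a bar. The medians are 2.36, 0.43 and 1.48, and red points, past 2-fold in at least 1 model, are most frequent among the 31 members over no exon.

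The 6 members of TAF1D show how far RNAs from 1 host could part. The host read 5.94 with SPRR1A and 5.87 with DsRed in the stable pair, and 6.36 with SPRR1A and 6.46 with GFP in the transient pair, higher in both transient libraries. From the 5′ end the members are SNORA40, SNORA18, SNORA8, SNORA1, SNORA32 and SNORA25. SNORA8, at 4.29, 4.23, 4.39 and 4.76, and SNORA1, at 1.46, 1.65, 2.57 and 2.46, were higher in both transient libraries, as the host was. SNORA18, SNORA32 and SNORA25 were lower in both, and SNORA25 by the most, at 4.32, 4.61, 3.12 and 3.11. Within either model none of the 6 passed 2-fold. EIF4A2, which encodes a helicase related to that of EIF4A1, holds 3 more. SNORA81 followed its host, at 2.65, 2.50, 3.58 and 4.19 against 7.99, 7.78, 8.25 and 8.38, whereas SNORA63 read 4.35, 3.62, 4.24 and 3.88 and SNORA4 read 3.87, 4.25, 3.70 and 4.46.

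Differences between delivery methods scattered more widely than those between SPRR1A and control. This comparison was chosen after the values were seen, and retroviral against plasmid delivery cannot be told apart from vector, culture and library. Between the controls 19 members (21.3%) differed by more than 2-fold (background 7.42%). In transient GFP 14 members were higher than in stable DsRed by more than 2-fold (background 6.77%) and 5 lower (background 0.653%). Between the SPRR1A libraries 17 (19.1%) did so (background 3.49%), of which 12 were higher in the transient one (background 2.54%) and 5 lower (background 0.947%). Over the 53 members above the floor in all 4 libraries, the SD of the differences was 0.68 and 0.54 in the stable and transient models, against 0.84 when the controls were compared and 0.81 for the SPRR1A libraries. Over all 12542 such entities these SDs were 0.25, 0.22, 0.49 and 0.42, so members scattered more widely in each contrast. Both transient libraries lay above both stable ones for 25 members (28.1%, background 33.5%) and below them for 12 (13.5%, background 26.2%), so the lack of overlap was no more frequent than over all entities. Of the higher ones, SCARNA16, SCARNA21, SNORA15 and SNORA5B qualified as members only through the transient libraries. Of the lower ones, SNORA59A and SNORA75 qualified only through the stable libraries.

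By more than 2-fold in every one of the 4 pairings of a transient with a stable library, 7 members were higher after transient delivery (7.87%, background 1.89%) and 2 lower (2.25%, background 0.201%). SCARNA16, counted among the higher ones, was at the floor in both stable libraries, so it was a member only through the transient libraries. SNORA68 read 0.89 with SPRR1A and 0 with DsRed in the stable pair, and 2.43 with SPRR1A and 2.54 with GFP in the transient pair. SNORA48 of EIF4A1 read 2.06, 1.12, 3.34 and 4.04. In SNORA14B, within the mitochondrial import receptor gene TOMM20, the values were 0.63, 0.82, 2.11 and 2.26. The others were SCARNA16, SNORA28 (0.04, 0.26, 1.53 and 1.73), SNORA3B (2.68, 2.58, 3.84 and 4.04) and SNORA29 (0.57, 0, 1.65 and 1.67). The 2 lower members were SNORA25 and SNORA50C, the latter within SNHG25 at 3.86, 4.16, 2.84 and 2.75. Centring the contrasts on their medians, or leaving SPRR1A out of the total, left 1 lower member in place of 2.

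**Figure D5:**
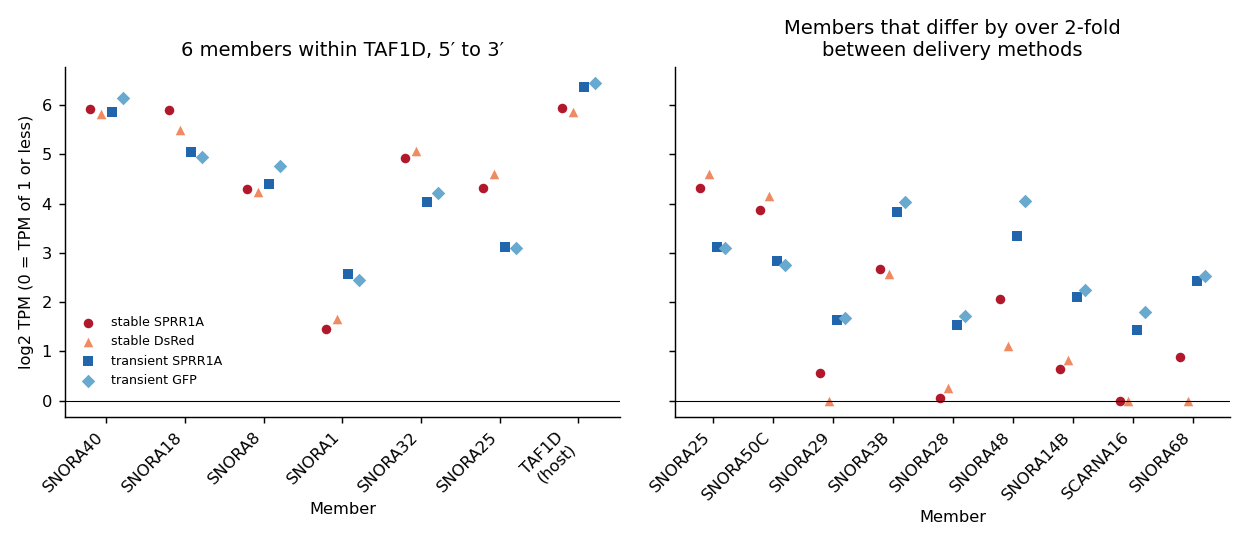
Log2 TPM (vertical axis, 0 means that the TPM did not exceed 1) in the 4 libraries for the 6 members within TAF1D and their host (left) and for the 9 members that differ by more than 2-fold between both transient and both stable libraries (right). SNORA18, SNORA32 and SNORA25 are lower in both transient libraries while the host TAF1D is higher there.

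The proteins of the H/ACA particle did not pass 2-fold in either model. DKC1, the synthase, read 6.87 with SPRR1A and 6.91 with DsRed in the stable pair, and 6.50 with SPRR1A and 6.66 with GFP in the transient pair. Its partner NHP2 differed by -0.08 and -0.06 (stable and transient), NOP10 by 0.11 and -0.13, and GAR1, at 6.36, 6.59, 6.03 and 6.08, by -0.23 and -0.04. None of 4 assembly factors, 5 Cajal body genes, 5 genes of trimming and adenylation, 12 stand-alone pseudouridine synthases or 4 core proteins of box C/D particles passed 2-fold. COIL, the marker protein of Cajal bodies, read 4.89, 4.83, 4.72 and 4.83. WRAP53, which brings these RNAs to Cajal bodies, read 4.97, 5.14, 4.71 and 4.75. TERC, the telomerase RNA, which ends in an H/ACA domain, was at the floor in both stable libraries, at 0.29 in transient SPRR1A and at 0.08 in transient GFP. Its reverse transcriptase partner TERT was above the floor only in stable DsRed, at 0.24.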

How the data were processed

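Total RNA of 4 PK-1 cultures was sequenced in paired-end mode from poly(A) libraries (TruSeq Stranded mRNA). The authors aligned the reads to the hg38 transcriptome with Strand NGS at default settings and deposited 1 log2 TPM value per entity and library. Its version, the annotation release and how multiply matching reads were treated are not given in the sources used here. Values were used as deposited. Differences are log2 TPM of SPRR1A minus its own control, past 2-fold beyond 1 or -1, over all 13944 entities that exceed the floor in any library, with no filter. Sums and coverage used the TPM. Positions and sequences came from RefSeq (GRCh38 patch 14, matched by Entrez identifier) and hosts from GENCODE 44, as the shortest gene on the same strand that spans the member.

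Members, gene lists and comparisons were chosen with earlier results of these data known. The text names members past 2-fold, the 8 with the highest mean, all SCARNA members, members at the floor in both SPRR1A libraries or both controls only, hosts of these and lists of pathway genes. Members of the delivery comparison, of shared hosts and at thresholds were named after their values were seen. Alternatives were log2(TPM + 1), log2(TPM + 0.1), minima on TPM of 2 and 5, centring, leaving SPRR1A out of the total, SNORA alone, leaving out members over exons and, added after the data were seen, a floor at a TPM of 0. The count of differences past 2-fold and the estimate of steps were tested on simulated data. The planted differences stood at higher levels than most members had, and the other calculations were not tested in this way. Software was matplotlib 3.10.9, scipy 1.17.1, pandas 2.3.3 and numpy 2.4.6 under Python 3.11.15.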

Additional observations from a re-analysis of the deposited data

Results flagged for a closer look

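In 3 members the differences of the stable and the transient model had opposite signs, with 1 of them past 2-fold and the other at least 0.51 in size. None of these contrasts between models could be tested, as each condition had 1 library. SNORA23 differed by -0.64 in the stable and by 1.84 in the transient model, a gap of 2.47, with transient GFP at the floor. SNORA52 differed by -2.12 and 0.51, a gap of 2.63, which turns on its low value in stable SPRR1A. SNORA71A differed by 0.66 and -1.24, a gap of -1.89, and related copies of it lie in the same host.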

How the results depend on the processing

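With 1 library per condition, no replicates could be paired within a model and no replicate could be left out. Treating the stable and transient models as 2 pairs was not done. Of 108 values under alternatives, 70 moved little (counts within 1.5 times, medians within 0.05, of which the stable median at a minimum TPM of 5 changed sign to 0.00801), 38 moved further and none of the named differences reversed. On log2(TPM + 0.1) no count moved. On log2(TPM + 1), which shrinks low values, 1 member was higher and 2 lower past 2-fold (stable), 1 and 3 (transient), and 3 and 1 between delivery methods. A minimum TPM of 2 in the higher library left 3 members at the floor in SPRR1A only and 1 in control only (1 and 2 for the transient pair) and a stable median of 0.0602. With a minimum of 5, 0 members were higher and 2 lower (stable), 0 and 1 (transient), 0 were at the floor in either library of a pair, and 3 were higher after transient delivery. Centring gave medians of -0.0903 (stable) and 0.0769 (transient) and 1 member lower after transient delivery. Leaving SPRR1A out of the total gave a transient median of 0.0451 and again 1 lower member. Among SNORA alone, 7 were at the floor in SPRR1A only, 7 in DsRed only, and the stable median was -0.0810. Without members over exons, 2 were higher past 2-fold in the stable model, 4 and 7 were at the floor in SPRR1A or DsRed only, the medians were -0.217 (stable) and -0.281 (transient), and 3 members were higher and 0 lower after transient delivery. A floor at a TPM of 0 on log2(TPM + 1), chosen after seeing the data, gave 13 higher and 10 lower (stable) and 8 and 10 (transient). Of 17 named differences, all stayed past 2-fold on log2(TPM + 0.1), after centring and without SPRR1A in the total, 7 on log2(TPM + 1), where SNORA2A and SNORA103 no longer passed in both models, and 12 with the floor at 0. Depth in reads is unknown, and the floor at a TPM of 1 hides lower values.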
